A study of Homo sapiens with 8 samples.

Results

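Transport proteins carry bile acids, drugs and small metabolites into hepatocytes, the parenchymal cells of the liver, and out of them into bile. The genes of 9 such proteins were followed in cultures grown as a monolayer, in a scaffold, or in a perfused scaffold. They were chosen by name, and with earlier results of these data known. SLC10A1, SLCO1B1, SLCO1B3, SLCO2B1 and SLC22A7 serve uptake from blood, AQP9 carries water, glycerol and urea, and ABCB11, ABCC2 and ABCG8 serve export into bile. All probes that the platform annotation gives to these symbols were used, which made 13 of the 47323 probes on the array. At least 1 probe of 8 members passed the detection filter and entered the test, among 11031 genes in all. SLCO1B3 did not.

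Human liver cells were cultured for 5 days and each RNA sample was read on 1 HumanHT-12 v4 bead array. The monolayers (2D, 3 arrays) were seeded with 0.25 of the cell number used for the scaffolds. The static scaffold cultures (static 3D, 3 arrays) were grown in MatriGrid, a polycarbonate support with micropores, kept in wells. The perfused scaffold cultures (perfused 3D, 2 arrays) used the same support and cell number, in a bioreactor fed by a peristaltic pump. Seeded number and culture format therefore differed together between 2D and both scaffold groups. No treatment, allele or agent is named for any group. The labels disagree on the cells: the design text speaks of hepatocytes from 3 donors, while the sample characteristics name HepG2, a hepatocarcinoma cell line. Which donor belongs to which array is not given, so whether the arrays of a group came from separate donors is not known, and the p-values measure the spread between these arrays only.

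A hepatocyte faces blood with its sinusoidal membrane and bile with its canalicular membrane. Uptake carriers sit in the sinusoidal membrane: the sodium-coupled carrier NTCP (SLC10A1) takes up conjugated bile salts, the organic anion transporting polypeptides OATP1B1, OATP1B3 and OATP2B1 (SLCO1B1, SLCO1B3 and SLCO2B1) take up bilirubin, steroid conjugates, statins and other anions, and OAT2 (SLC22A7) takes up small organic anions and nucleotides. Export into bile is driven by ATP: BSEP (ABCB11) moves bile salts, MRP2 (ABCC2) moves glucuronide and glutathione conjugates, and ABCG8 moves sterols as the partner of ABCG5. AQP9 is a sinusoidal channel through which glycerol enters for gluconeogenesis. Several of these genes are known to lose expression when isolated hepatocytes are kept in monolayer.

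The reference promoters of 4 members are shown because their genes carry the contrasts described here. SLCO1B1 and SLCO1B3 are closely related genes of which 1 was detected and the other was not, and AQP9 and SLC22A7 had the highest differences from 2D. Each runs 5′ to 3′ on its gene's strand, from 250 bases before to 50 bases after the start, as RefSeq gives it on GRCh38.p14. SLCO1B1 lies at chr12:21130944-21131243, SLCO1B3 at chr12:20810455-20810754, SLC22A7 at chr6:43298010-43298309 and AQP9, at the first of its 2 listed starts, at chr15:58137919-58138218, all on the + strand. Capitals mark the longest stretch that both SLCO promoters share, the nuclear receptor half-site AGGTCA in SLC22A7, and the C/EBP pattern TTGCNNAA in AQP9. The SLC22A7 site and the second AQP9 site lie on the opposite strand, so their letters appear as the reverse complement.
SLCO1B1: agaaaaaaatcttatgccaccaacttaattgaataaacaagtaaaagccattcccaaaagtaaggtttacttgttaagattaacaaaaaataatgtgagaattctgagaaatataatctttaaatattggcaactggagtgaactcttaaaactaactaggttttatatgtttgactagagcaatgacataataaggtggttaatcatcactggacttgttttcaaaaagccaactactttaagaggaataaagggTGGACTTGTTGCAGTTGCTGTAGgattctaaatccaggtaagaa
SLCO1B3: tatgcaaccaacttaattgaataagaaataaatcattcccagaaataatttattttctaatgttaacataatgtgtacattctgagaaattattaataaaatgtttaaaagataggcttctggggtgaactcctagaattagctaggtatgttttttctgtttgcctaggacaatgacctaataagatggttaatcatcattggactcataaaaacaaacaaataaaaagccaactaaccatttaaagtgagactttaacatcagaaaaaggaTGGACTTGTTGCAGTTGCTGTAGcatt
SLC22A7: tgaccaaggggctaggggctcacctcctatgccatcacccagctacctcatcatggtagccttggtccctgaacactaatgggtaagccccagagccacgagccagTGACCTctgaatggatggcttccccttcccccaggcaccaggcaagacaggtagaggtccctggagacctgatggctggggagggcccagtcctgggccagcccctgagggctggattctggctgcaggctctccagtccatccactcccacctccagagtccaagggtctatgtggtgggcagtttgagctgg
AQP9: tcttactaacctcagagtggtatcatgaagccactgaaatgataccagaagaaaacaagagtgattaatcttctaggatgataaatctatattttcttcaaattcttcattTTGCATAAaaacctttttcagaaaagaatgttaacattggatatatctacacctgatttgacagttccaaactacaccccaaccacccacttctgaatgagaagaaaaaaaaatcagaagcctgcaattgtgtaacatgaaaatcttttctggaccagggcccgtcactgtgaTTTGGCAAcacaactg

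The SLCO1B1 and SLCO1B3 promoters were alike at 216 of 261 aligned bases (82.8%, with 78 gap positions). Their longest shared stretch, TGGACTTGTTGCAGTTGCTGTAG, has 23 bases and begins 6 bases past the start in SLCO1B1 and 23 bases past it in SLCO1B3. The 9 members have 11 entries of 300 bases among the 35116 promoters in the table. TTGCNNAA was found in 4 of the 11 entries, those of SLC10A1 and ABCB11 and both entries of AQP9, which overlap and share a site, against 10.5% of all promoters. AGGTCA was found in 3 entries, those of SLC10A1, SLCO1B3 and SLC22A7, against 13.8% of all. The HNF4 pattern CAAAGTCCA occurred in 1 entry, of SLCO2B1, against 0.384% of all. The TATA box pattern TATAAA occurred in 2, of SLCO1B1 and ABCC2, against 11.5%. The SLCO1B1 match lay at -88 from the start on the opposite strand, and the ABCC2 match at -236. An inverted repeat of AGGTCA with 1 base between, which contains that half-site, occurred in 0 entries and in 0% of all promoters. Both strands were searched. These are letter matches in a short window and not binding data.

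Replicate numbers were assigned here in accession order and pair no arrays. Some arrays stood apart in ways that their groups do not explain. 2D replicate 1 and static 3D replicate 1 were each most like the other (r = 0.921 across genes, which are not independent), and 5 of the other 6 arrays were also most like an array of another group. On 2D replicate 1 and static 3D replicate 1 the list of Kupffer cell and macrophage markers had means of 7.05 and 7.06 on the log2 scale, with 7 and 4 of its 14 members detected, against 9.21 to 10.6 with 13 or 14 detected on the other 6 arrays. The stellate cell and fibroblast list lay at 7.04 and 7.23 there against 8.80 to 9.71, and none of the 9 endothelial markers was detected on either. The dividing cell list lay higher on these arrays, at 9.88 and 9.27 against 6.74 to 7.37. The hepatocyte list, of which 13 of 14 markers had a kept probe, had 12 or 13 members detected on each array. Its means were 11.45, 13.33 and 12.79 in 2D, 13.36, 13.45 and 14.14 in static 3D, and 13.89 and 13.73 in perfused 3D. Every scaffold array thus lay above every 2D array, by a narrow margin between static 3D replicate 1 and 2D replicate 2. Among the kept hepatocyte markers only TF and ASGR1 had this order. Albumin (ALB) had log2 fold changes of -0.01 for static and -0.002 for perfused 3D over 2D. APOA2 was lowest on static 3D replicate 2, at 13.95. The hepatoma and oncofetal list had means between 9.75 and 10.4 on all 8, but members of it moved in opposite directions. On 2D replicate 1 and static 3D replicate 1, IGF2BP3 read 8.41 and 7.46 against 5.52 to 6.49 elsewhere. TSPAN8 read 10.02 and 9.34 there against 12.15 to 13.08, and the other kept members overlapped. In such cultures fewer hepatocytes and less RNA per hepatocyte cannot be told apart. The part of these differences in the transporter values was not tested, and results are given below with and without both arrays. The arrays also lay on 2 chips: static 3D replicate 1 and both perfused arrays on chip 1, and the other 5 on chip 2. Static 3D alone had arrays on both chips. Values with chip as a block, fitted as a fixed term, therefore rest on static 3D replicate 1, which stood apart, against static 3D replicates 2 and 3.

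**Figure D1:**
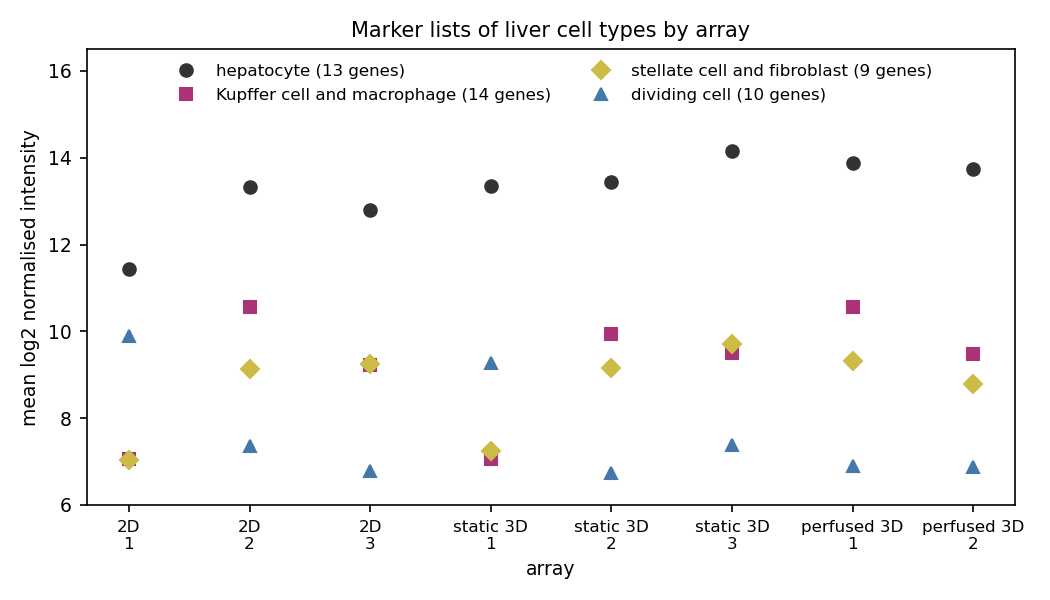
Mean log2 intensity of the kept markers of 4 cell type lists (hepatocyte, Kupffer cell and macrophage, stellate cell and fibroblast, dividing cell) on each of the 8 arrays. On 2D replicate 1 and static 3D replicate 1 the macrophage list lies near 7.05 and the dividing cell list at 9.88 and 9.27, the reverse of the other 6 arrays.

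No transporter passed the test in any comparison. Between static 3D and 2D, 0 of 8 members had a limma adjusted p under 0.05 (background 0% of 11031 genes), and 2 of 8, AQP9 and SLC22A7, had an unadjusted p under 0.05 (background 4.7%). Between perfused 3D and 2D, 0 of 8 passed (background 0.00907%), and 3 of 8, the same pair and ABCG8, had an unadjusted p under 0.05 (background 4.23%). Between perfused and static 3D, 0 of 8 passed (background 0.00907%), and AQP9 alone had an unadjusted p under 0.05 (background 1.88%). The direction of the estimates was still uneven. The members were chosen with earlier results of these data known, so counts over them are descriptions and not a test. All 8 log2 fold changes lay above 0 for static 3D over 2D (50.1% of all genes) and for perfused 3D over 2D (50.9%), with medians of 0.60 and 0.74 against 0.00 and 0.01 over all genes. These comparisons share the 2D arrays. The mean of the hepatocyte marker list also lay higher on every scaffold array than on any 2D array, though most of its markers overlapped. The part of this list here was not tested. Without 2D replicate 1 and static 3D replicate 1, 6 of 8 and 7 of 8 lay above 0 (46.5% and 50.7% of 10419 genes), with medians of 0.36 and 0.50. For perfused over static 3D, 6 of 8 lay above 0 (50.2% of all genes), with a median of 0.28, and on the 6 remaining arrays 5 of 8 (54.4% of genes), with a median of 0.57.

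**Figure D2:**
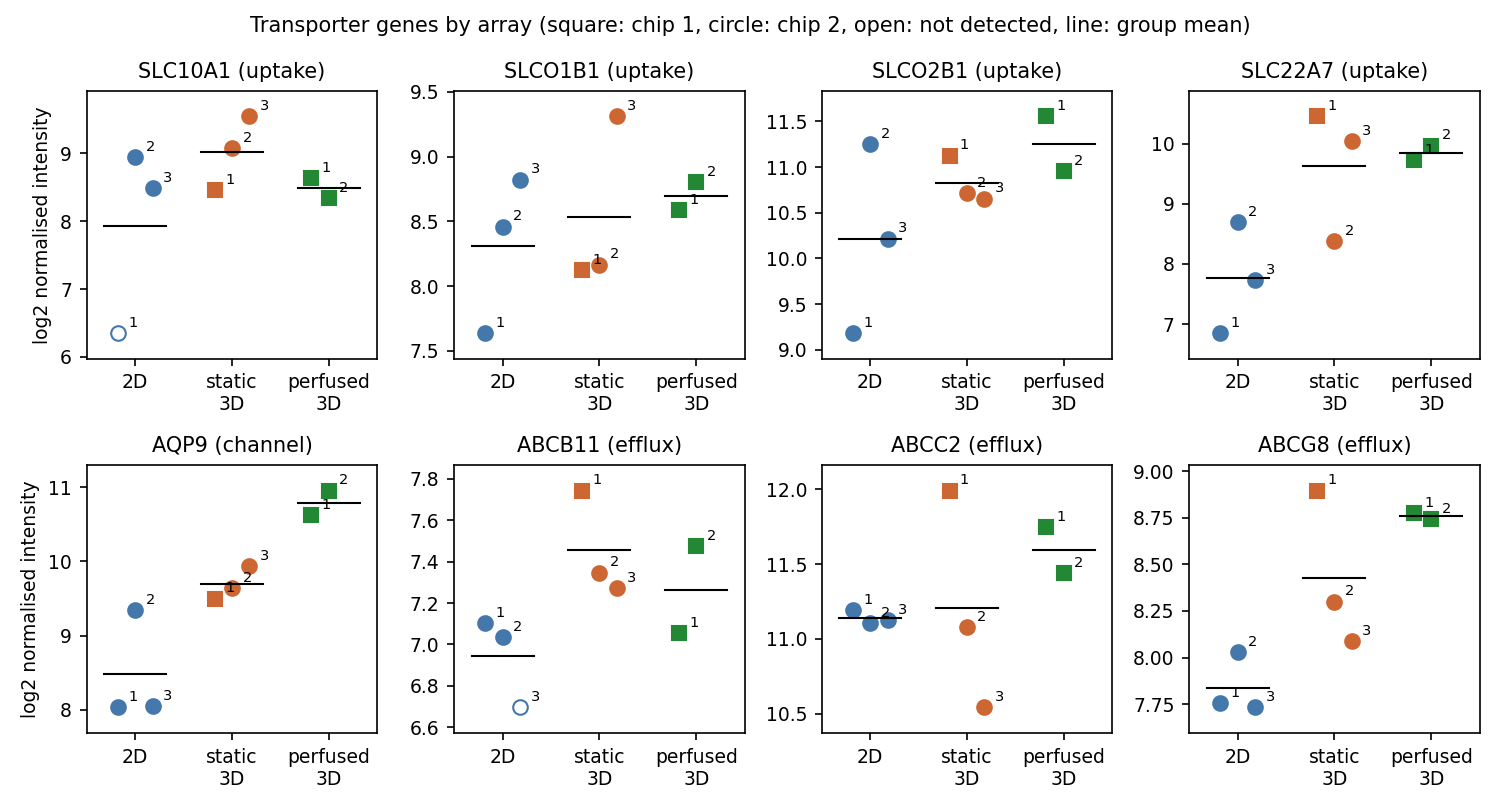
Log2 intensity of the probe used for each of the 8 tested members on each array, with squares for chip 1, circles for chip 2, open symbols where the probe was not detected and lines at the group means. The AQP9 groups do not overlap, while SLC10A1, SLCO1B1 and SLCO2B1 are each lowest on 2D replicate 1 and otherwise overlap.

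AQP9 was the member whose groups separated in order. Its log2 intensity was 8.03, 9.35 and 8.04 in 2D, 9.50, 9.64 and 9.94 in static 3D, and 10.63 and 10.95 in perfused 3D. Every static array lay above every 2D array and below both perfused arrays, an order that 26 of 11031 genes (0.236%) had, while 0.172% had the opposite order. The group means were 8.47 ± 0.75 (SD, n = 3), 9.69 ± 0.23 (SD, n = 3) and 10.79 ± 0.23 (SD, n = 2).

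The log2 fold change of AQP9 was 1.22 (SE 0.37, 95% interval 0.37 to 2.07) for static 3D over 2D, with a limma adjusted p of 0.94. For perfused 3D over 2D it was 2.32 (SE 0.42, 1.36 to 3.27), a 4.98-fold difference, with a limma adjusted p of 0.611. For perfused over static 3D it was 1.10 (SE 0.42, 0.14 to 2.05), with a limma adjusted p of 1. None passed, and the direction was the same under all alternatives tried. Within chip 2, static 3D exceeded 2D by 1.32. Within chip 1, perfused 3D exceeded by 1.29 the only static array there, replicate 1. Without 2D replicate 1 and static 3D replicate 1 the 3 log2 fold changes were 1.09, 2.09 and 1.00. The lowest adjusted p that limma gave for perfused 3D over 2D, over all alternatives, was 0.0938, without 2D replicate 2, the highest of the 2D arrays.

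SLC22A7, the carrier OAT2, had the widest range of the uptake genes. Its brightest probe read 6.86, 8.69 and 7.73 in 2D, 10.45, 8.38 and 10.04 in static 3D, and 9.73 and 9.97 in perfused 3D. Static 3D replicate 2 lay within the 2D range, and the other 4 scaffold arrays lay above all 2D arrays. The log2 fold change was 1.86 (SE 0.60, 95% interval 0.48 to 3.25) for static 3D over 2D and 2.09 (SE 0.68, 0.54 to 3.63) for perfused 3D over 2D, with limma adjusted p of 0.94 and 0.964. Perfused and static 3D differed by 0.22 (SE 0.68, -1.32 to 1.77). Without 2D replicate 1 and static 3D replicate 1 the first of these values was 0.98 and the second 1.61. With chip as a block the perfused value over 2D was 0.85.

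A second SLC22A7 probe showed the same arrays as high. It was detected on static 3D replicates 1 and 3, at 8.21 and 8.41, and on both perfused arrays, at 8.08 and 7.52. It was not detected on static 3D replicate 2, nor on any 2D array, where it read 5.62 to 5.91. Read as a bound against the lowest detected level of each 2D array, perfused 3D was at least 1.98-fold higher. The same reckoning gave 1.66-fold for static 3D, which is no strict bound because replicate 2 was not detected. The third probe disagreed: it was detected on 3 arrays, read 6.49 to 7.38, and its log2 fold changes were -0.05, -0.13 and -0.08. The annotation lists the third probe under the same RefSeq transcript as the tested probe, and the second probe under another. Probe positions were not used here, and why the third probe differs was not tested.

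**Figure D3:**
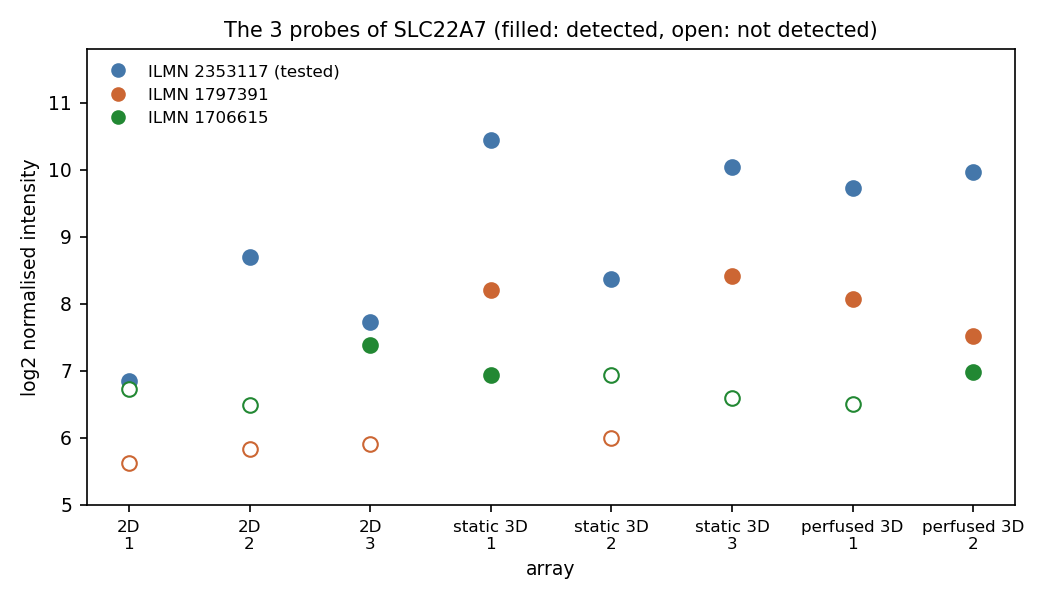
Log2 intensity of the 3 SLC22A7 probes on each array, with open symbols where a probe was not detected. The tested probe and the second probe are high on static 3D replicates 1 and 3 and on both perfused arrays, and the third stays between 6.49 and 7.38.

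SLC10A1, the bile salt carrier NTCP, varied mostly through 1 array. It read 6.35, 8.95 and 8.48 in 2D, 8.45, 9.07 and 9.54 in static 3D, and 8.64 and 8.34 in perfused 3D. On 2D replicate 1 it was not detected (detection p 0.239), and the next lowest array read 8.34. Being detected on the other 7 arrays but not on this one was a pattern that 164 genes had (1.49%). The log2 fold change was 1.10 (SE 0.63) for static 3D over 2D, 0.56 (SE 0.70) for perfused 3D over 2D and -0.54 (SE 0.70) for perfused over static 3D, with limma adjusted p of 0.94, 0.965 and 1. Without 2D replicate 1 the first value was 0.31 and the second -0.23.

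The carriers SLCO1B1 and SLCO2B1 overlapped between all groups. SLCO1B1 read 7.64, 8.46 and 8.82 in 2D, 8.12, 8.17 and 9.31 in static 3D, and 8.59 and 8.80 in perfused 3D. Its log2 fold changes were 0.23 (SE 0.42), 0.39 (SE 0.46) and 0.16 (SE 0.46), each smaller than its error. SLCO2B1 read 9.18, 11.25 and 10.22 in 2D, 11.13, 10.71 and 10.65 in static 3D, and 11.55 and 10.95 in perfused 3D. Its log2 fold change was 0.61 (SE 0.47) for static and 1.04 (SE 0.53) for perfused 3D over 2D, and 0.10 and 0.52 without 2D replicate 1. The limma adjusted p of both genes lay between 0.94 and 1. A second SLCO2B1 probe gave the same order of arrays in 2D, at 8.23, 10.72 and 9.08, and read 9.78 to 10.33 in static 3D and 10.03 to 10.96 in perfused 3D.

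SLCO1B3 was not detected on any of the 8 arrays. Its probe read 5.65 to 6.17 with detection p of 0.394 to 0.738, so the array set no level for OATP1B3 and no comparison was made. The second SLCO1B1 probe was likewise not detected on any array, at 5.34 to 5.67, while the first was detected on all 8. A probe that is not detected bounds the signal at that probe and does not show that the gene is silent. 5 of the 8 tested members, the 4 uptake carriers and AQP9, were lowest on 2D replicate 1, where 23% of all genes were lowest.

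Among the efflux genes, the sterol pump subunit ABCG8 lay higher in every scaffold culture than in any monolayer. It read 7.75, 8.03 and 7.73 in 2D, 8.89, 8.30 and 8.09 in static 3D, and 8.77 and 8.74 in perfused 3D. The log2 fold change was 0.59 (SE 0.27, 95% interval -0.03 to 1.21) for static and 0.92 (SE 0.30, 0.22 to 1.61) for perfused 3D over 2D, with limma adjusted p of 0.94 and 0.964, so neither passed. Without 2D replicate 1 and static 3D replicate 1 these values were 0.30 and 0.86. With chip as a block, fitted as a fixed term, they were 0.35 and 0.22.

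The bile salt pump ABCB11 was close to the detection limit. It read 7.10, 7.04 and 6.70 in 2D, where the last was not detected (detection p 0.104), 7.74, 7.35 and 7.27 in static 3D, and 7.06 and 7.47 in perfused 3D. The lowest detected level of the arrays lay at 6.75 to 6.94. Static 3D did not overlap with 2D and exceeded it by 0.51 (SE 0.24, limma adjusted p 0.94), while perfused 3D overlapped with both, at 0.32 (SE 0.27) over 2D and -0.19 (SE 0.27) over static 3D.

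The conjugate pump ABCC2 was nearly level in monolayer and spread in the static scaffold. It read 11.19, 11.11 and 11.13 in 2D, an SD of 0.05, and 11.99, 11.08 and 10.54 in static 3D, an SD of 0.73. In perfused 3D it read 11.75 and 11.44, above all 2D arrays. The log2 fold change was 0.06 (SE 0.34) for static 3D over 2D, 0.45 (SE 0.38) for perfused 3D over 2D and 0.39 (SE 0.38) for perfused over static 3D, with limma adjusted p of 0.994, 0.964 and 1. Within chip 1, where static 3D replicate 1 is the only static array, the last value was -0.40. It ranged from 0.058 to 0.78 with single arrays left out, lowest without static 3D replicate 3 and highest without static 3D replicate 1, and was 0.79 on the 6 arrays without those that stood apart (limma adjusted p 0.809). For both ABCC2 and ABCG8 the 3 arrays of chip 1 lay above the 5 of chip 2, which held for 2.72% of all genes, while 2.22% had all chip 1 arrays below. Both perfused arrays lie on chip 1 and all 2D arrays on chip 2, so for these pumps perfusion and chip cannot be told apart.

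**Figure D4:**
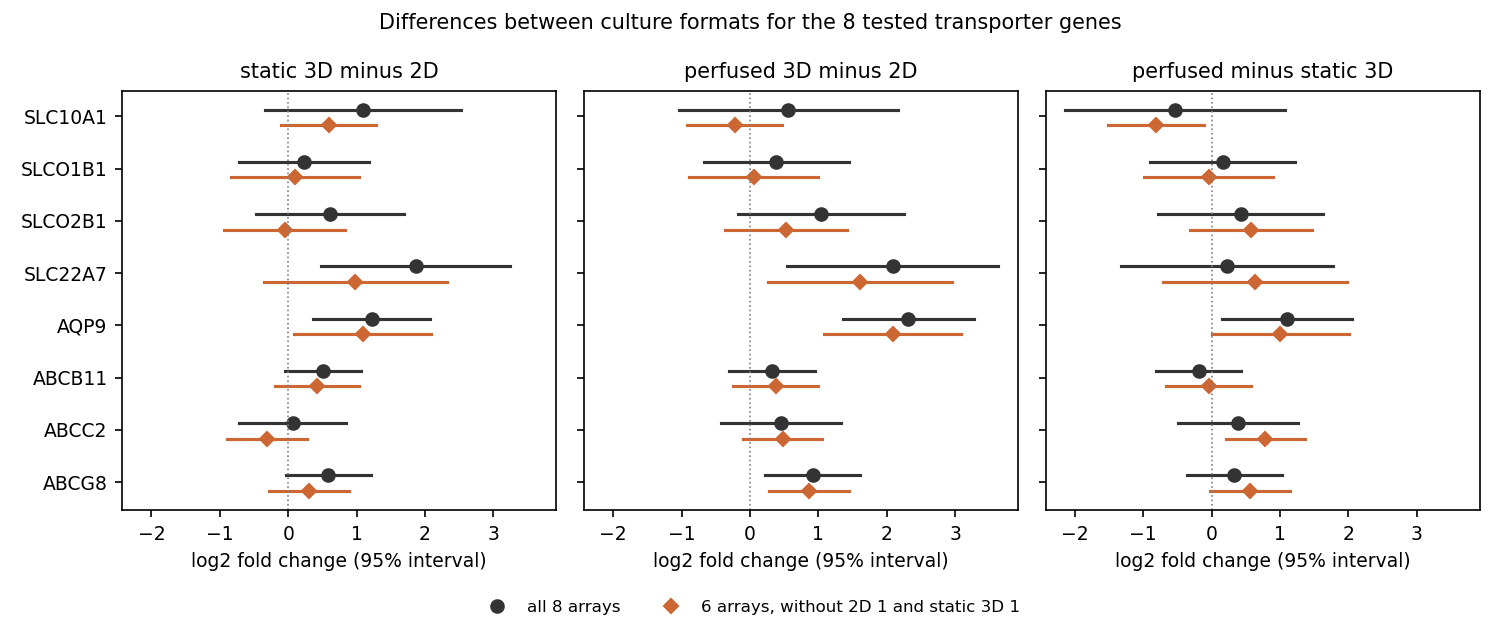
Log2 fold change with its 95% interval for the 8 tested members in the 3 comparisons of culture groups, from all 8 arrays (circles) or from 6, the first replicate of 2D and of static 3D being left out (diamonds). With all arrays, intervals that lie wholly above 0 are those of AQP9 in all 3 comparisons, of SLC22A7 in both comparisons with 2D and of ABCG8 for perfused 3D over 2D, before any adjustment for the number of genes.

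Counted over the members, groups did not overlap for AQP9, ABCB11 and ABCG8 between static 3D and 2D, all higher in static 3D (3 of 8, background 4.96%). Between perfused 3D and 2D this held for SLC22A7, AQP9, ABCC2 and ABCG8, all higher in perfused 3D (4 of 8, background 10.8%). Between perfused and static 3D it held for AQP9 alone (1 of 8, background 8.95%). In all 3 comparisons 0 members were lower without overlap (backgrounds 5.18%, 10.1% and 8.31%). With both arrays that stood apart left out, the counts were 4, 5 and 4 higher (15.9%, 16.4% and 21.5% of genes) and 1, 0 and 1 lower (20.5%, 15.9% and 16.3% of genes). The lower ones were ABCC2, at -0.31 in static 3D against 2D, and SLC10A1, at -0.81 in perfused against static 3D.

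Uptake carriers were then set against efflux pumps as the mean of each class per array, after each gene was centred on its own mean over the 8 arrays. The 4 tested uptake carriers had class means of -1.66, 0.17 and -0.35 in 2D, 0.37, -0.08 and 0.72 in static 3D, and 0.46 and 0.35 in perfused 3D. The 3 efflux pumps had -0.24, -0.20 and -0.41 in 2D, 0.61, -0.02 and -0.29 in static 3D, and 0.26 and 0.29 in perfused 3D. Static 3D exceeded 2D by 0.95 for uptake and 0.39 for efflux, against a pooled SD over arrays of 0.65 and 0.30. Perfused 3D exceeded 2D by 1.02 and 0.56, and static 3D by 0.07 and 0.18. The difference between the classes, uptake minus efflux, was thus larger in static 3D than in 2D by 0.56 and larger in perfused 3D than in 2D by 0.45, both within its pooled SD of 0.74.

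The class difference moved with single arrays and with the chip. Without 2D replicate 1, uptake minus efflux differed between static 3D and 2D by 0.03, and between perfused 3D and 2D by -0.08. Without static 3D replicate 1 as well, these values were 0.27 and -0.08. Leaving out static 3D replicate 3 took the first to 0.17, whereas leaving out 2D replicate 2 gave 0.92 and 0.81. Uptake alone exceeded 2D by 0.42 in static and 0.49 in perfused 3D without 2D replicate 1. It exceeded 2D by 1.35 and 1.41 without 2D replicate 2. Efflux was highest on the 3 arrays of chip 1, and with chip as a block its difference from 2D was 0.13 for static and -0.21 for perfused 3D. In the same fit uptake minus efflux differed from 2D by 0.80 and 1.17, above the pooled SD of 0.74 that all arrays gave without this block. Perfused over static 3D had no settled sign: with single arrays left out it ranged from -0.14 to 0.26 for uptake and from -0.023 to 0.43 for efflux. These class values describe the chosen members and were not tested.

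**Figure D5:**
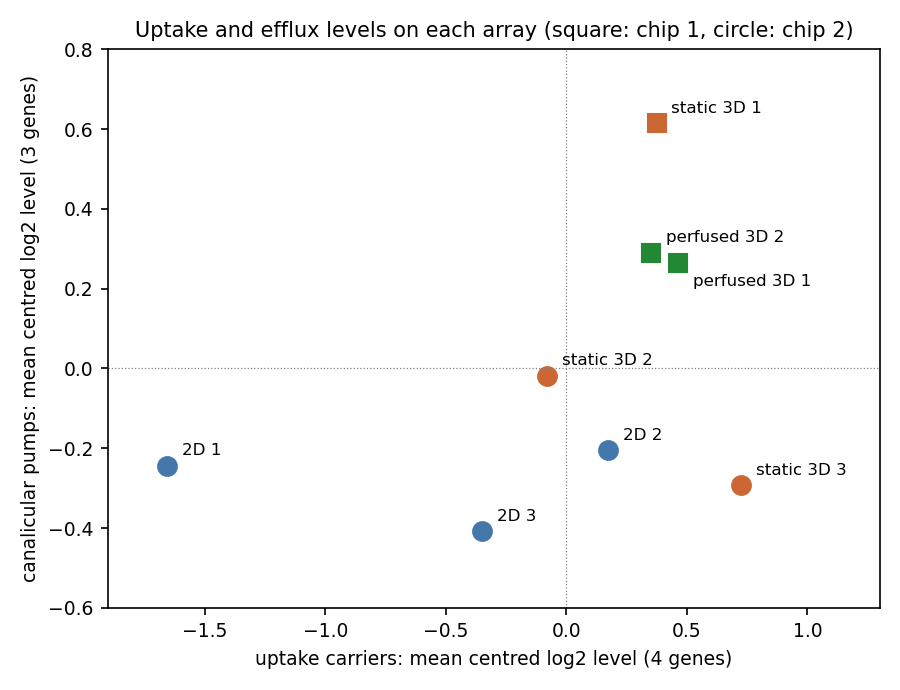
Class mean of the 4 uptake carriers against that of the 3 efflux pumps, in log2 units centred per gene, with 1 symbol per array (squares for chip 1, circles for chip 2). 2D replicate 1 lies apart at -1.66 for uptake, and the 3 arrays of chip 1 are the highest for efflux.

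Other transport genes of the hepatocyte were taken from 5 lists, and 0 of their members passed the test in any comparison. At an unadjusted p under 0.05 there were 1, 1 and 0 of 14 sinusoidal carriers, 2, 0 and 0 of 4 sinusoidal efflux pumps, 1, 0 and 1 of 9 canalicular transporters, 1, 1 and 0 of 10 scaffold and trafficking genes, and 1, 0 and 0 of 6 regulators, for static 3D over 2D, perfused 3D over 2D and perfused over static 3D. Over all genes 4.7%, 4.23% and 1.88% had such a p. The lists held 21, 7, 10, 12 and 12 genes, and the members without a kept probe were not tested.

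Among the other sinusoidal carriers the median log2 fold change was 0.08 for static and 0.56 for perfused 3D over 2D, with 8 and 10 of 14 above 0 (50.1% and 50.9% of all genes). Without static 3D replicate 1 the static median was -0.20, and the perfused median was 0.16 without 2D replicate 1 and -0.18 with chip as a block. SLC38A3, a glutamine carrier, had 1.47 (SE 0.73) and 2.23 (SE 0.81), the latter without overlap. SLC22A9, a carrier of steroid sulfates, had 1.19 (SE 0.61) and 0.82 (SE 0.69). The glucose carrier GLUT2 (SLC2A2) lay the other way, at -0.80 (SE 0.28) and -0.59 (SE 0.31), and all scaffold arrays were below all 2D arrays. The limma adjusted p of these 3 genes was 0.94 for static and 0.964 for perfused 3D over 2D.

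The kept genes of the sinusoidal efflux list (ABCC3, ABCC4, SLC51A and ABCA1) had medians of 0.35 and 0.26 over 2D, the latter -0.13 without perfused replicate 1. SLC51A, a subunit of the bile acid and steroid exporter OST, had 1.69 (SE 0.67) in static and 1.64 (SE 0.75) in perfused 3D. MRP3 (ABCC3) lay higher in static 3D without overlap, at 0.71 (SE 0.28), and had 0.34 (SE 0.31) in perfused 3D. MRP4 (ABCC4) had -0.56 (SE 0.44) and -0.89 (SE 0.50). Of the other canalicular transporters, with medians of 0.32 and 0.38 (0.0037 and 0.083 without 2D replicate 1, and -0.42 for perfused 3D with chip as a block), the phospholipid floppase ABCB4 did not overlap with 2D in either scaffold group, at 0.96 (SE 0.34) and 0.74 (SE 0.38). The multidrug pump ABCB1 had -0.60 (SE 0.27) in static and 0.22 (SE 0.30) in perfused 3D, and exceeded static 3D without overlap in perfused 3D, by 0.82 (SE 0.30). ATP8B1, a flippase of the canalicular membrane, had -0.45 (SE 0.31) and -0.18 (SE 0.34). None of these values passed limma's test after adjustment.

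Genes that anchor or deliver transporters to the canalicular membrane had medians of -0.05 and -0.09 over 2D, with 3 of 10 above 0 each time. These were 0.11 without static 3D replicate 3 and 0.023 without 2D replicate 3. Radixin (RDX), which ties MRP2 to actin, lay lower in both scaffold groups without overlap, at -0.71 (SE 0.23) and -0.88 (SE 0.26), with limma adjusted p of 0.94 and 0.964. The motor MYO5B had -0.03 (SE 0.31) and -0.60 (SE 0.34), and the canalicular adhesion protein CEACAM1 had 0.39 (SE 0.33) and 0.44 (SE 0.37). Of 6 tested regulators, 5 lay above 0 in each comparison with 2D, with medians of 0.12 and 0.36, against 50.1% and 50.9% of all genes. The static median was -0.28 without 2D replicate 1. FOXA2, a liver transcription factor, had 0.58 (SE 0.22, without overlap) and 0.48 (SE 0.24), the oxysterol receptor LXR alpha (NR1H3), a known activator of ABCG5 and ABCG8, had 0.13 (SE 0.40) and 0.90 (SE 0.45), and LRH-1 (NR5A2) had 0.10 (SE 0.29) and -0.44 (SE 0.32). HNF4A, the bile acid receptor FXR (NR1H4) and PXR (NR1I2) were not analysed here.

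The genes whose profiles came closest to each member were found by the root mean square difference of centred log2 values over the 8 arrays. For SLC22A7 they were the urea cycle enzyme CPS1 at 0.28, the carrier SLC38A3 at 0.34 and the glyoxylate enzyme AGXT at 0.36, against a median of 1.23 over all genes. For AQP9 they were the mitochondrial carrier SLC25A47 at 0.29, the apolipoprotein(a) gene LPA at 0.30 and GLTPD2 at 0.33, against a median of 1.05. SLC10A1 was nearest to TESC and the complement gene C3, both at 0.22, and then to AQP12A at 0.25, against 0.94. ABCG8 was nearest to SCARB1, the HDL receptor SR-BI, at 0.14, then to MPDZ and GFOD1, both at 0.16, against 0.55. SLCO2B1 was nearest to the gap junction gene GJB1 at 0.16, P2RX7 at 0.17 and SEC14L4 at 0.21, against 0.76, and SLCO1B1 to DLL1 at 0.17, UGT2B11 at 0.20 and ABHD14A at 0.21, against 0.60. ABCC2 was nearest to SCAF4 at 0.12, and JOSD2 and UBN1 at 0.16, against 0.53. ABCB11 was nearest to SOX13, SNX11 and HSD17B8 at 0.12, against 0.45. These genes were picked for the smallest differences, so their values lie below the median by selection. The profiles share the same 8 arrays, including the ones that stood apart, and members with a small range lie close to many genes.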

How the data were processed

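The authors deposited, per the file headers, mean bead intensities of 47323 probes on 8 arrays, not normalised between arrays, each with a detection p-value. The authors also deposited a table of log2 values, made by steps that the sources used here do not state, which served as an alternative. The detection p-values moved in steps of 1/770.

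Intensities were background-corrected in limma 3.58.1 (R 4.3.3) by normexp with an offset of 16, quantile normalised and log2 transformed. Probes with detection p under 0.05 on at least 2 arrays were kept (18556, of which 14115 had 1 symbol), and the brightest kept probe stood for each of 11031 genes. Arrays detected 29.7% to 34.3% of their probes. One limma model held all 8 arrays (lmFit, eBayes with trend, 5 residual degrees of freedom), two-sided, with Benjamini-Hochberg adjustment over 11031 genes at 0.05. Precision is limited by the number of arrays. Data were simulated for perfused 3D against 2D over 11031 genes, with 200 genes changed. In these, 0% of changes of 1 log2 unit, 64.5% of 2 units and 93.5% of 4 units were recovered, with 0, 3 and 13 false calls. The noise was drawn independently for each gene, without differences shared within arrays or chips, so these shares may overstate recovery of a single transporter.

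Members and lists were chosen with earlier results of these data known. Named genes are all members, the 3 genes of each list with the smallest p in any comparison, and the 3 nearest profiles of each member. Alternatives were other background correction, scaling, filter, probe choice and weights, chip as a block, and arrays left out.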

Additional observations from a re-analysis of the deposited data

How the results depend on the processing

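Over all alternatives tried, 0 transporters passed limma's test. No paired analysis was possible because the labels give neither replicate numbers nor the donor of each array. The count of genes called between static 3D and 2D was 0 as reported and 1 (HILPDA) with 2D replicate 1 and static 3D replicate 1 both left out. The count between perfused 3D and 2D was 1 (CYP3A4) as reported, 2 with no detection filter, 0 with probes detected on all arrays, 0 with chip as a fixed block, 2 with both arrays left out, and 0 to 1 with single arrays left out. Between perfused and static 3D it was 1 as reported, 2 with no filter, 0 with probes detected on all arrays, 0 with chip as a fixed block, and 0 to 1 with single arrays left out. The loss to 0 came without perfused replicate 1 and without perfused replicate 2.

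With chip as a fixed block the efflux class differed by -0.21 for perfused 3D over 2D and by -0.34 over static 3D. The same block gave, for perfused 3D over 2D, -0.11 for ABCB11 and -0.73 for ABCC2, for perfused over static 3D 0.035 for SLC10A1, -0.60 for SLC22A7, -0.40 for ABCC2 and -0.14 for ABCG8, and for static 3D over 2D -0.33 for ABCC2. The ABCC2 value for static 3D over 2D was also -0.17 with median scaling, -0.089 in the authors' deposited values, -0.0032 with chip as a random block and -0.17 with array weights. Median scaling moved the median of all genes by -0.13 there. Without both arrays that stood apart, static 3D over 2D was -0.31 for ABCC2 and -0.050 for SLCO2B1, perfused 3D over 2D was -0.22 for SLC10A1, and perfused over static 3D was -0.045 for SLCO1B1.

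With single arrays left out, static 3D over 2D ranged from -0.16 to 0.48 for SLCO1B1, from 0.097 to 1.13 for SLCO2B1 and from -0.33 to 0.39 for ABCC2, and perfused 3D over 2D from -0.23 to 1.07 for SLC10A1. Perfused over static 3D ranged from -0.044 to 0.55 for SLCO1B1, -0.40 to 0.63 for SLC22A7, 0.058 to 0.78 for ABCC2 and -0.39 to 0.02 for ABCB11. Likewise uptake minus efflux ranged from 0.03 to 0.92 and from -0.08 to 0.81 over 2D, the uptake class from 0.42 to 1.35 and 0.49 to 1.41, and the efflux class from 0.13 to 0.59 and 0.50 to 0.60. The causes of these shifts were not tested. Signals near the lowest detected level, those of ABCB11, of SLCO1B3, and of SLC10A1 and SLC22A7 on 2D replicate 1, limit what the array can show.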
